A study of Mus musculus with 2 samples.

Results

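Genes of 4 peptide systems of the spinal dorsal horn were described in the neural tube of the mouse embryo: the tachykinin gene Tac1 with the receptor genes Tacr1 and Tacr3, the somatostatin gene Sst with Sstr1 and Sstr2, the neuropeptide Y gene Npy with Npy1r and Npy2r, and Calca, the gene of calcitonin gene-related peptide (CGRP). These 10 genes were taken by symbol from 43346 annotated genes, and all 10 were found in the tables of both libraries. The list is one of names and has no threshold on a measured value, although earlier results of these data were known when it was drawn up. The tissue was neural tube of embryos of the strain B6NCrl at 15.5 days, described as healthy, with no treatment or altered allele named. Males and females were pooled, with 78 embryos in replicate 1 and 62 in replicate 2, and 10 ng of RNA entered each library. The libraries form 1 group of 2 biological replicates, so no condition was compared, no p-value was computed, and the spread given is that between pools.

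Small peptides modulate the relay of pain, itch and temperature signals in the dorsal horn, the sensory part of the spinal cord. Sensory neurons of the dorsal root ganglia make CGRP and substance P, the main product of Tac1, and many interneurons of the dorsal horn make somatostatin, neuropeptide Y or substance P themselves. Motor neurons of the spinal cord also make CGRP. The peptides are cut from larger precursors, stored in dense-core vesicles and act on receptors coupled to G proteins. Tacr1 and Tacr3 encode the neurokinin receptors NK1 and NK3, Sstr1 and Sstr2 encode somatostatin receptors, and Npy1r and Npy2r encode the Y1 and Y2 receptors.

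Tac1 and Calca each give several mRNAs that differ in the peptides they encode, so the sequences that tell these mRNAs apart are shown first. The Tac1 forms differ by an exon of 45 bases (exon 4, chr6:7557216-7557260, plus strand, GRCm38) and an exon of 54 bases (exon 6, chr6:7559099-7559152), both within the coding sequence. Exon 6 carries neurokinin A, while substance P lies on exon 3 and is common to the forms. The beta form has both exons, the gamma form lacks exon 4 and the alpha form lacks exon 6. The 2 optional exons are given in capitals, and the 2 skipping joins are given with the 24 bases before the join in lower case and the 24 bases after it in capitals.
Tac1 exon 4: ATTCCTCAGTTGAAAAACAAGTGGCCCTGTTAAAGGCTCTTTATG
Tac1 exon 6: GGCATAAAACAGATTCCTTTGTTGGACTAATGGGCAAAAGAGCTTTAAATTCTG
Tac1 exon 3 joined to exon 5 (gamma): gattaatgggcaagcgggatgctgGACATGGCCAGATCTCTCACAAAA
Tac1 exon 5 joined to exon 7 (alpha): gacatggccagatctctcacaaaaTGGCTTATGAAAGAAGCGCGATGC

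Calca joins exon 3 either to the exon that encodes CGRP or to the exon that encodes calcitonin, the hormone of the thyroid C cells. Both joins leave the same 24 bases of exon 3 (chr7:114634468-114634491, minus strand, GRCm38). They continue at chr7:114632576-114632599 in the CGRP form and at chr7:114633762-114633785 in the calcitonin form. The capitals mark the 24 bases after the join, of which 4 positions are identical between the forms.
Calca CGRP form: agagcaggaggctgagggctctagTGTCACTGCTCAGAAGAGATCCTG
Calca calcitonin form: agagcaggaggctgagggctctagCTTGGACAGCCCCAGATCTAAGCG

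The libraries held 34678043 and 41355355 expected counts in annotated genes. Replicate 1 stood apart in transcripts of thymus and epithelium: all 11 listed genes were more than 2-fold higher there, and they summed to 957.02 TPM in replicate 1 and 6.91 TPM in replicate 2. Among them were the thymic protease gene Prss16 at 135.89 and 0.07 TPM and the keratin gene Krt8 at 266.3 and 1.97 TPM. Levels of genes and forms are therefore given for each library on its own, while some ratios and medians are given over both libraries.

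The 3 peptide genes Npy, Sst and Tac1 were the highest of the members, above 100 TPM in both libraries, and Calca and the 6 receptor genes stood between 2 and 34.73 TPM. All levels are in TPM, the abundance of transcripts per length and library size that the authors deposited, and a gene counted as detected where each library held at least 1 TPM. All 10 members were detected, against 35.8% of all annotated genes and 63.4% of protein-coding genes. The 4 peptide genes summed to 656.61 TPM in replicate 1 and 793.52 TPM in replicate 2. The 6 receptor genes summed to 48.3 and 50.38 TPM. The summed peptide level in TPM was therefore 14.7 ± 1.52 times the summed receptor level (SD, n = 2). This ratio depends on the division by length, since the peptide mRNAs are short. The peptide sum includes Calca, whereas the CGRP receptor genes Calcrl and Ramp1 are not members and are not in the receptor sum.

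**Figure D1:**
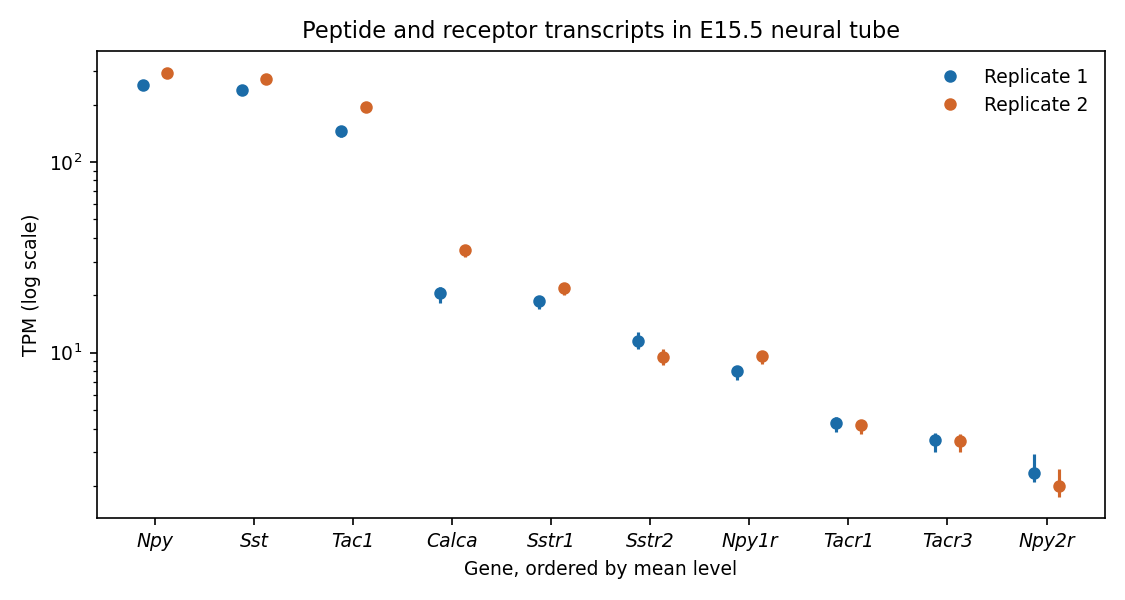
TPM of the 10 genes on a log axis, with 1 point per library and vertical lines for the interval bounds deposited by the authors, whose level the headers do not state. Npy, Sst and Tac1 sit above 100 TPM in both libraries (145.01 to 293.19 TPM), and Npy2r is lowest at 2.35 and 2 TPM.

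The order of the 10 genes by level was Npy, Sst, Tac1, Calca, Sstr1, Sstr2, Npy1r, Tacr1, Tacr3 and Npy2r. Between neighbours, the values of the libraries overlapped for 3 pairs: Npy and Sst, Calca and Sstr1, and Sstr2 and Npy1r. Within each library, Npy was still above Sst and Calca above Sstr1, while Sstr2 and Npy1r changed places between the pools. The other 6 pairs of neighbours did not overlap.

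Tac1 (ENSMUSG00000061762.8; chr6:7554879-7565834, plus strand) stood at 145.01 TPM in replicate 1 and 194.78 TPM in replicate 2. It ranked 967 among all annotated genes, and its expected counts were 2674 and 4256. The level was higher in replicate 2, and the ratio of replicate 2 to replicate 1 in expected counts scaled to library size (CPM) was 1.33 (95% interval 1.27 to 1.40, Clopper-Pearson, for counting error only). Tac2, which encodes neurokinin B, the preferred ligand of Tacr3, was under the detection level at 0.62 and 0.52 TPM, from 8 counts in each library. Tac4, the third tachykinin gene, had 0 counts in replicate 1, where 3 counts would equal 0.117 TPM, and stood at 0.16 TPM in replicate 2.

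Tacr1 (ENSMUSG00000030043.9; chr6:82402334-82560104, plus strand), the receptor preferred by substance P, stood at 4.3 TPM in replicate 1 and 4.18 TPM in replicate 2. Tacr3 (ENSMUSG00000028172.5; chr3:134829007-134934579, plus strand) stood at 3.47 and 3.44 TPM. Both receptors were almost level between the pools. In TPM, Tac1 exceeded Tacr1 by 40.2 ± 9.10-fold and Tacr3 by 49.2 ± 10.5-fold (SD, n = 2), and Tacr1 exceeded Tacr3 by 1.23 ± 0.0170-fold. Tacr2, the neurokinin A receptor, was under the detection level at 0.17 and 0.1 TPM. Of the tachykinin receptors, the one that prefers neurokinin B was thus detected while its ligand gene was not.

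Sst (ENSMUSG00000004366.3; chr16:23889573-23890958, minus strand) stood at 238.62 TPM in replicate 1 and 270.82 TPM in replicate 2, at rank 604 among all genes. Its relative Cort, the cortistatin gene, had 1 and 2 counts. Sst was a little higher in replicate 2, with a CPM ratio of 1.136 (95% interval 1.08 to 1.195, Clopper-Pearson). The deposited Sst transcript has a length of 599 bases, against 721 in the later annotation used here for coordinates, and the TPM rests on the deposited length.

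Of the somatostatin receptors, Sstr1 (ENSMUSG00000035431.4; chr12:58211772-58214444, plus strand) was highest at 18.66 TPM in replicate 1 and 21.71 TPM in replicate 2. Sstr2 (ENSMUSG00000047904.6; chr11:113619342-113626028, plus strand) followed at 11.48 and 9.47 TPM. Sstr1 exceeded Sstr2 by 1.63-fold in replicate 1 and by 2.29-fold in replicate 2, so the excess was present in both pools but uneven. Sst exceeded Sstr1 by 12.6 ± 0.222-fold and Sstr2 by 24.7 ± 5.52-fold in TPM (SD, n = 2). Sstr4 was also detected, at 2.62 and 3.08 TPM, whereas Sstr3 (0.34 and 0.44 TPM) and Sstr5 (0.51 and 0.74 TPM) were not. Sstr2 lies within Slc39a11, a gene on the opposite strand at 24.9 and 22.62 TPM, but 0 of its exon bases are shared with Slc39a11 exons. Reads from Slc39a11 introns cannot be told apart from Sstr2 reads unless strand was used, on which the sources used here say nothing.

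Sstr2 is spliced within its coding sequence into a form with another end of the receptor, and this form was rare. It took 8.10% of Sstr2 TPM in replicate 1 and 3.06% in replicate 2, from 29.55 and 11.02 expected counts. The form with an uninterrupted coding sequence stood at 10.55 and 9.18 TPM. The deposited bounds for the spliced transcript with counts ran from 0.0425 to 1.74 TPM in replicate 1 and from 0.0252 to 1.09 TPM in replicate 2, so its level is poorly fixed. From the posterior mean TPM, another estimate in the same tables, the mean share was 10.7% in place of 5.58%. The transcripts of Sstr1 and the main transcripts of Npy2r share their coding sequence, and the split between them is not described.

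Npy (ENSMUSG00000029819.6; chr6:49822710-49829507, plus strand) stood at 252.4 TPM in replicate 1 and 293.19 TPM in replicate 2, at rank 542, the highest of the members in TPM. Npy exceeded Sst by only 1.07 ± 0.0176-fold in TPM, and in CPM, which is not divided by length, the mean ratio was 0.9995. Its relative Pyy, the gene of peptide YY, stood at 0.85 TPM in replicate 1 and 6.41 TPM in replicate 2, from 6 and 77 counts. Pyy was thus detected in 1 pool only, and the ratio of Npy to Pyy went from 297 in replicate 1 to 45.7 in replicate 2. Ppy, the pancreatic polypeptide gene, had 0 counts in replicate 1, where 3 counts would equal 0.343 TPM, and it had 3 counts in replicate 2.

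Npy1r (ENSMUSG00000036437.5; chr8:66697192-66706792, plus strand) led the neuropeptide Y receptors at 8.04 TPM in replicate 1 and 9.58 TPM in replicate 2. Npy2r (ENSMUSG00000028004.8; chr3:82538383-82548084, minus strand) stood at 2.35 and 2 TPM. Npy5r, the Y5 receptor gene, was about level with Npy2r at 2.06 and 2.15 TPM, and its values lay within the range of Npy2r. Npy4r (0.34 and 0.14 TPM) and Npy6r (0.16 and 0.08 TPM) were under the detection level. Npy exceeded Npy1r by 31.0 ± 0.558-fold and Npy2r by 127 ± 27.7-fold in TPM, and Npy1r exceeded Npy2r by 4.11 ± 0.968-fold (SD, n = 2). These ligand-to-receptor ratios in TPM depend on the division by length, since the peptide mRNAs are short: in CPM, Npy exceeded Npy1r by 4.98-fold and Npy2r by 18.5-fold, Tac1 exceeded Tacr1 by 6.75-fold and Tacr3 by 11.1-fold, and Sst exceeded Sstr1 by 3.32-fold and Sstr2 by 6.13-fold.

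Calca (ENSMUSG00000030669.9; chr7:114631478-114636357, minus strand) stood at 20.58 TPM in replicate 1 and 34.73 TPM in replicate 2, from 405 and 818 counts. It differed more between the pools than any other member, with a CPM ratio of 1.69 (95% interval 1.502 to 1.91, Clopper-Pearson). Its neighbour in function Calcb, the gene of the second CGRP, stood at 16.32 and 22.98 TPM and was also higher in replicate 2. Calca exceeded Calcb by 1.26-fold in replicate 1 and 1.51-fold in replicate 2. CGRP acts on the receptor Calcrl together with the accessory protein Ramp1, which were detected at 22.08 and 18.95 TPM and at 17.45 and 13.12 TPM. The ratio of Calca to Calcrl was 0.932 in replicate 1 and 1.83 in replicate 2, so its direction depended on the pool, and in CPM its mean was 0.449.

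Calcrl and its partners also serve adrenomedullin, and vessels express them. Ramp2, the adrenomedullin partner, was the highest gene of the CGRP and calcitonin family at 88.48 and 86.89 TPM. Ramp3 stood at 24.54 and 26.33 TPM, and Crcp, which encodes an intracellular component of CGRP signalling, at 57.23 and 63.59 TPM. The calcitonin receptor gene Calcr was detected at 1.15 and 1.5 TPM and the adrenomedullin gene Adm at 5.65 and 3.56 TPM. Adm2 (0.14 and 0.04 TPM) and Iapp (0.43 and 0.15 TPM) were under the detection level. In all, 2 of 9 further ligand genes of the 4 families were detected, with a median level of 0.29 TPM. Of 13 further receptor genes, counting the Ramp genes and Crcp, 8 were detected, with a median of 2.11 TPM. The median over the 10 members was 15.3 TPM, and it was 14.5 TPM over the 16524 genes with a mean of 1 TPM or more.

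**Figure D2:**
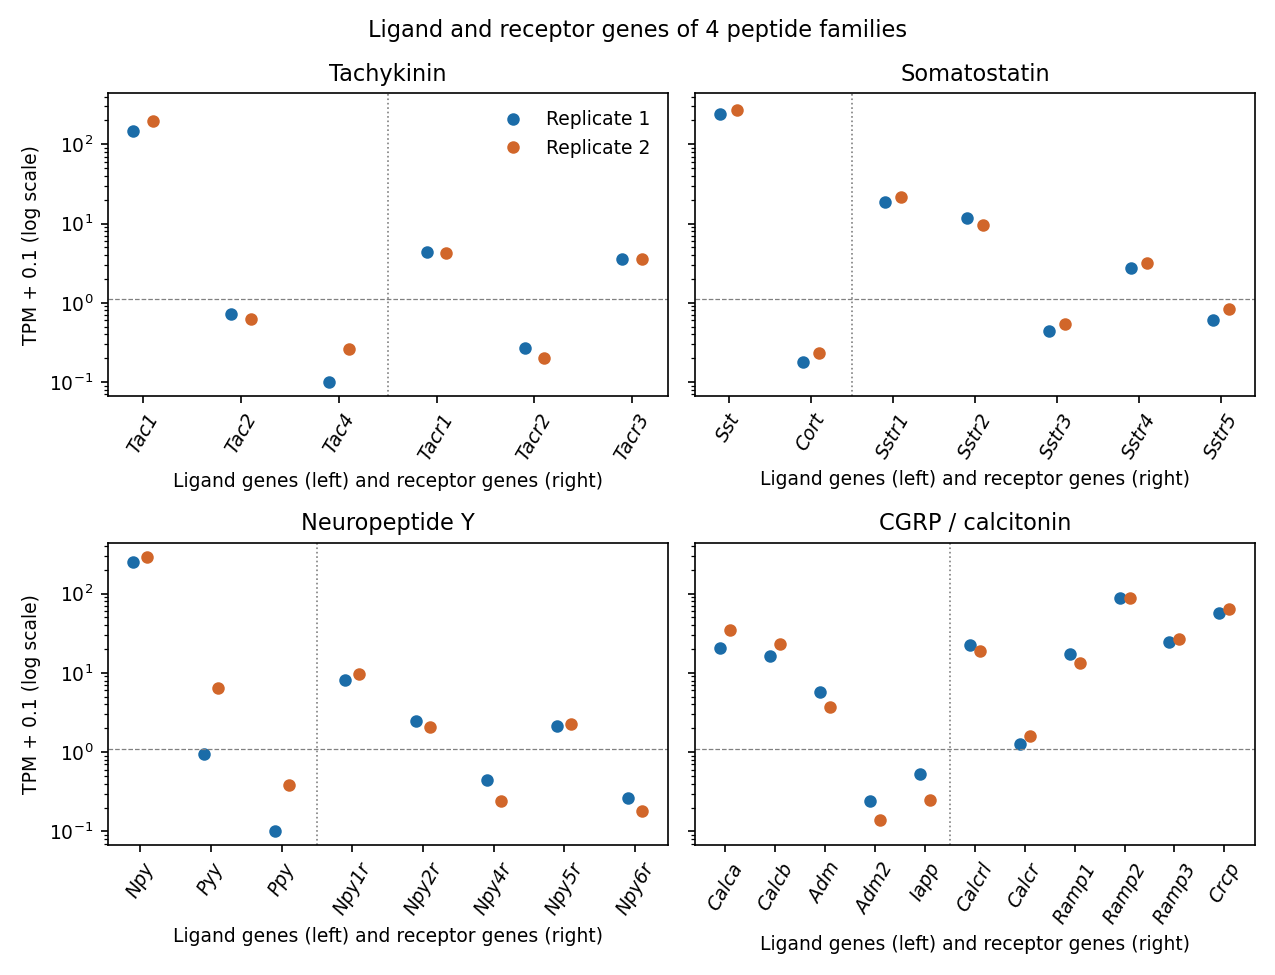
TPM + 0.1 on a log axis for ligand genes (left of each dotted line) and receptor genes (right) of 4 peptide families. The receptor genes include the Ramp genes and Crcp. There is 1 point per library and a dashed line at 1 TPM. In 3 families 1 ligand gene stands far above its relatives (Tac1, Sst and Npy), while Calca (20.58 and 34.73 TPM) and Calcb (16.32 and 22.98 TPM) are close.

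Nearly all Calca mRNA was in the CGRP form. The CGRP form stood at 19.6 TPM in replicate 1 and 33.68 TPM in replicate 2, against 0.98 and 1.05 TPM for the calcitonin form. The CGRP form thus took 95.2% of Calca TPM in replicate 1 and 96.98% in replicate 2 (96.1 ± 1.23%, SD, n = 2). The calcitonin form rested on 16.7 and 21.45 expected counts, with deposited bounds of 0.499 to 1.59 TPM and 0.575 to 1.61 TPM, too wide to show whether it differed between the pools as the CGRP form did. Of 13 genes listed as markers of thyroid and of pancreatic or gut endocrine cells, 2 were detected, Isl1 and Chga, which neurons also express. The thyroid factors Nkx2-1 and Foxe1 were at 0 counts in both libraries, where 3 counts would equal 0.0557 and 0.0500 TPM in replicate 1.

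All 3 main forms of Tac1 mRNA were present, and most of it held the neurokinin A exon. In TPM, the gamma form was highest, at 62.57 in replicate 1 and 88.3 in replicate 2. The beta form stood at 43.48 and 58.18 TPM and the alpha form at 38.73 and 48.22 TPM, and the deposited bounds of these forms overlapped within each library. The bounds of the gamma form lay above those of both other forms in either pool, with the lower bound at 55.1 and 80.0 TPM. This order depends on the division by length, with models of 691 bases for gamma and 1230 for beta. In expected counts, the beta form led with 1090.99 and 1742.73, against 821.79 and 1384.31 for gamma.

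Transcripts with exon 6 took 73.1% of Tac1 TPM in replicate 1 and 75.2% in replicate 2 (74.2 ± 1.46%, SD, n = 2). Those with exon 4 took 56.7% and 54.6% (55.7 ± 1.46%). The shares were close between the pools although the level of Tac1 differed, and each of the 3 forms was higher in replicate 2. The models differ at their ends as well: the first and last exons have 283 and 595 bases in the beta form and 66 and 318 in the gamma form. Without division by length, the share of expected counts from transcripts with exon 4 was 68.2%, while that with exon 6 was 72.5%.

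**Figure D3:**
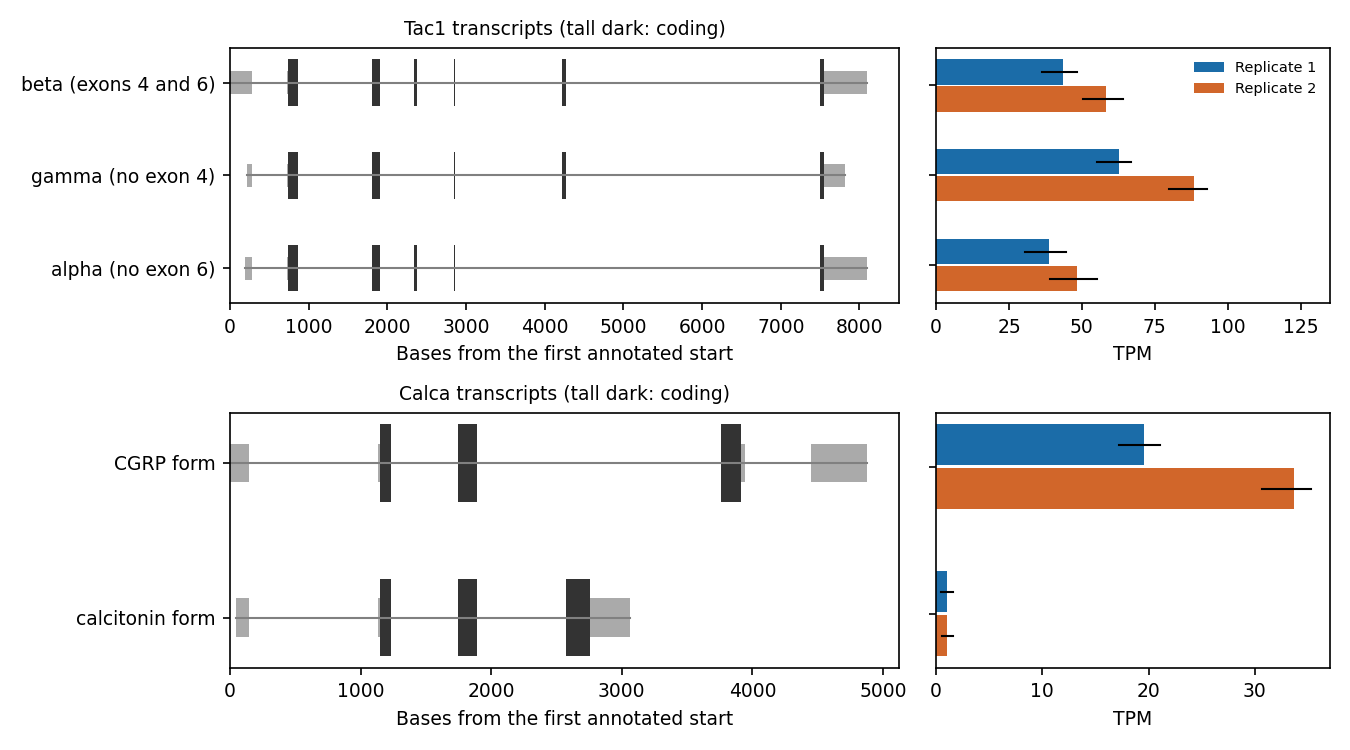
Left, exons of the main Tac1 and Calca transcripts against the distance in bases from the first annotated start, with coding parts tall and dark. Right, TPM of each transcript per library (bars from 0) with the deposited bounds as black lines; the gamma form of Tac1 (62.57 and 88.3 TPM) and the CGRP form of Calca (19.6 and 33.68 TPM) are highest.

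The difference between pools is given as log2 of (TPM + 1) in replicate 1 over replicate 2, and 6.27% of genes with a mean of 1 TPM or more were at least 2-fold apart on this scale. None of the 10 members was 2-fold apart (0 of 10), and their values ran from -0.73 for Calca to 0.25 for Sstr2. With 1 library on each side, these differences have no replicate check.

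Of the 10 members, 6 were higher in replicate 2 (Tac1, Sst, Sstr1, Npy, Npy1r and Calca), against 46.6% of genes with a mean of 1 TPM or more. TMM scaling put 7 members higher there, with Tacr3 added, and DESeq2 scaling 8, with Tacr1 as well. The median log2 ratio was -0.19 over the members and 0.02 over all those genes. For the same 6 members, the counting interval of the CPM ratio lay wholly above 1. It lay wholly below 1 for Sstr2 and included 1 for Tacr1, Tacr3 and Npy2r. The share of all genes was not computed for these intervals or for either scaling, so these counts cannot be set beside it.

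**Figure D4:**
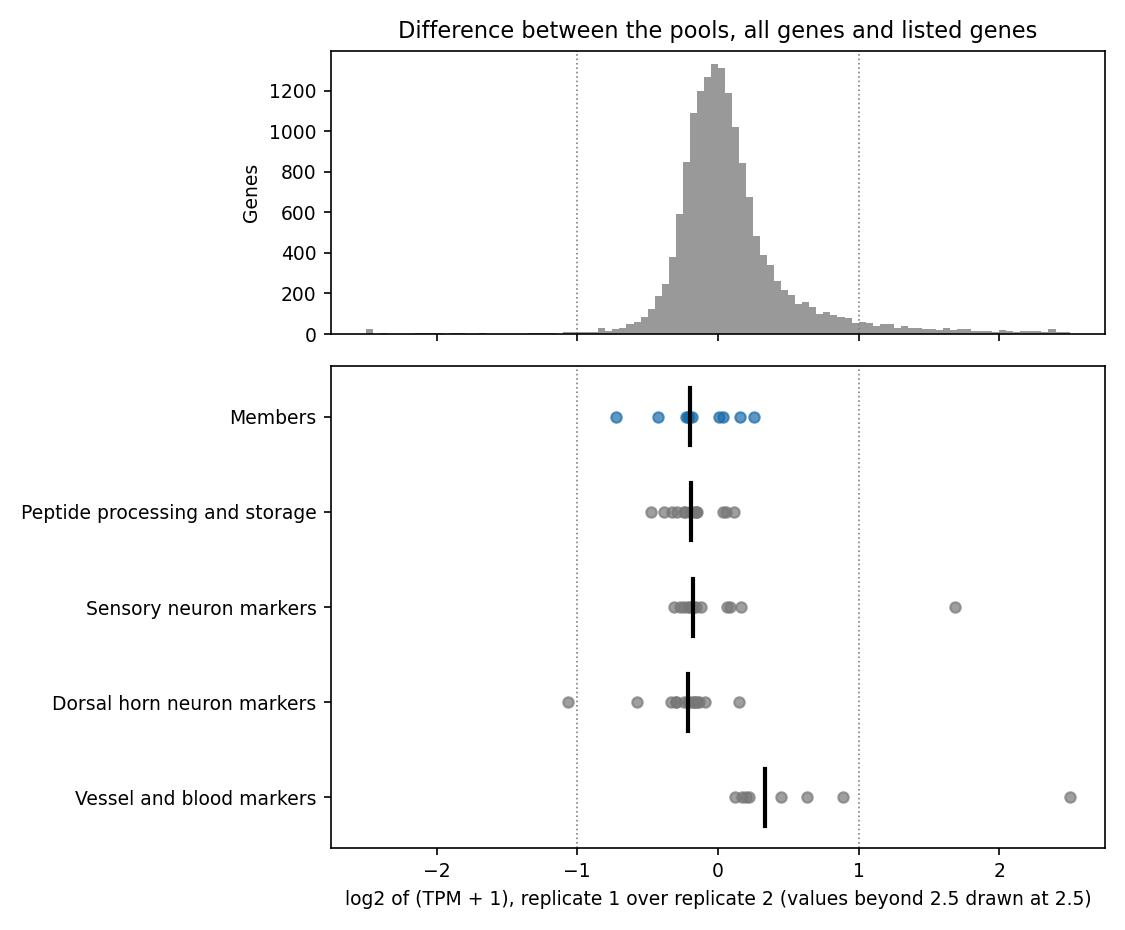
Top, histogram of log2 of (TPM + 1) in replicate 1 over replicate 2 for 16524 genes with a mean of 1 TPM or more. Bottom, the same value for each member and for 4 gene lists (points, with medians as black bars); the members lie between -0.73 and 0.25, dotted lines mark 2-fold, and values beyond 2.5 are drawn at 2.5.

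Some lists of neuronal genes had medians close to that of the members, and their part in the members' values was not tested. The median log2 ratio was -0.18 over the sensory neuron markers, -0.21 over the dorsal horn neuron markers and -0.19 over the genes of peptide processing and storage. It was -0.095 over the other dorsal horn peptides and receptors, -0.07 over the other family receptors and -0.00019 over the sympathetic and autonomic markers. Over 3 other family ligands it was -0.47. The 8 vessel and blood markers had a median of 0.33, on the side of replicate 1. On the dorsal horn neuron list, Gbx1, a factor of dorsal inhibitory neurons, alone was past 2-fold, at -1.07. On the sensory neuron list, this held for Runx1 alone, a factor of pain-sensing neurons and of blood cells, at 1.68. Further out lay Pyy, of the other family ligands, at -2.00, and Acta2, of the vessel and blood list, at 3.21. Gata2, of the sympathetic and autonomic list, was level with Calca at -0.73. In bulk tissue, fewer cells of a type and less RNA per cell cannot be told apart.

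Markers from the lists of dorsal horn and sensory neurons, and some of the sympathetic list, were present side by side, so the sources cannot be told apart in these libraries. Motor neurons, which also make CGRP, had no marker list. All 15 dorsal horn neuron markers were detected, with a summed level of 399.36 TPM in replicate 1 and 464.89 TPM in replicate 2. Of 15 listed sensory neuron markers, 14 were detected, and the list summed to 704.22 and 799.65 TPM. The sum was led by Sncg at 290.8 and 344.01 TPM and by Prph, the gene of the neuronal filament protein peripherin, at 148.35 and 165.74 TPM. Trpv1 stood at 1.99 and 1.67 TPM, and Scn11a reached 1 TPM in replicate 2 only (0.58 and 1.09 TPM). Listed genes need not be confined to a single cell type (Isl1 is also on the endocrine list), so the sums do not measure amounts of cells. Of 9 sympathetic and autonomic markers, the neurons of which also make neuropeptide Y, 6 were detected, against 63.4% of protein-coding genes. The list summed to 100.61 and 93.7 TPM, led by Ednrb at 59.96 and 50.07 TPM and Chrna3 at 18.2 and 18.03 TPM. Not detected were Dbh, the noradrenaline enzyme, at 0.24 and 0.31 TPM, the noradrenaline transporter gene Slc6a2 at 0.02 and 0.1 TPM, and Hand2 at 0.88 and 0.04 TPM. Whether sympathetic neurons were present was not tested.

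The machinery that makes and stores such peptides was expressed throughout. All 14 listed genes were detected, led by the carboxypeptidase Cpe at 529.19 and 626.38 TPM and by Pcsk1n at 240.12 and 301.51 TPM, Scg5 at 180.25 and 220.7 TPM and Chga at 144.35 and 163.79 TPM. Of the convertases that cut the precursors, Pcsk2 stood at 20.03 and 23.08 TPM and Pcsk1 at 3.62 and 4.15 TPM, the lowest of the list. Pam, the enzyme that amidates the ends of substance P, neuropeptide Y and CGRP, stood at 26.85 and 26.11 TPM.

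All 8 listed peptidases were detected too. The oligopeptidase Prep was highest at 84.44 and 77.56 TPM, and Mme, the neprilysin that degrades substance P, stood at 2.87 and 2.94 TPM. Dpp4, which trims neuropeptide Y, was the only one past 2-fold, at 14.15 TPM in replicate 1 and 1.9 TPM in replicate 2. It was higher in the pool with the thymus and epithelium transcripts, whose part in the result was not tested.

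Among 18 other genes of dorsal horn peptides and their receptors, 16 were detected, with a median of 5.23 TPM. Penk, the enkephalin gene, was highest at 119.48 and 132.43 TPM, below Npy, Sst and Tac1 in both libraries, and Cck followed at 82.61 and 101.81 TPM. The opioid receptor gene Oprd1 (0.91 and 0.73 TPM) and Vip (2.43 and 0.77 TPM) did not reach 1 TPM in both libraries.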

How the data were processed

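Total RNA of 2 libraries was analysed, with 35430338 expected counts in replicate 1 and 42321669 in replicate 2. The spike-in RNAs took 2.12% and 2.28% of them. The authors deposited gene and transcript tables on mm10 with GENCODE M4, per the notes deposited with each sample, and the sources used here name no aligner, quantifier or use of strand. The columns are, per the file headers, the expected count, TPM, FPKM (not used for results) and posterior mean TPM with interval bounds (a score here), and the deposited transcript tables give each transcript's percent of its gene. Symbols matched 42462 of 43346 genes, and coordinates were read from GENCODE M21 (GRCm38, the same assembly as mm10).

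Means, SDs, ratios of 16 gene pairs and shares were computed per library in Python 3.11.15 with pandas 2.3.3 and scipy 1.17.1. Isoforms were grouped by their M21 exons. Pools were compared as log2 of TPM plus 1. Floors are 3 counts. Expected counts were rounded for scaling with edgeR 4.0.16 and DESeq2 1.42.0, used as alternatives only. The fold step was tested on simulated data.

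Members, lists and pairs were chosen with earlier results of these data known. All members and all genes of the 4 families are named. Apart from the genes given next, other lists are named by at most their 4 highest and 2 lowest genes. Scn11a, Sncg, Trpv1, Dbh, Slc6a2, Hand2, Ednrb, Chrna3, Acta2, Pcsk2, Pam, Mme, Dpp4, Gbx1, Gata2, Runx1, Vip and the marker genes beside Calca were named after their values were seen.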

Additional observations from a re-analysis of the deposited data

How the results depend on the processing

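No paired analysis was possible because the libraries form 1 group. All 10 members were detected at 0.5 TPM, from posterior mean TPM, from TPM rescaled to annotated genes, from CPM and in either library alone, and 7 at 5 TPM. The share of all annotated genes was computed only for 1 TPM in both libraries (35.8%), so these counts cannot be set beside a share. No member was 2-fold apart (0 of 10) with a pseudocount of 0.1 TPM, with TMM or DESeq2 scaling, without the filter or from posterior means, while the share of all genes ranged from 2.95% to 8.71%. Of the 16 pairs, the first gene was higher in 14, against 13 from CPM and 14 to 15 with either library left out. Which gene came first was chosen with earlier results known, so this count only compares the settings and is no result about the genes. Log2 ratios of 2 pairs changed sign from CPM, which is not divided by length: Calca over Calcrl (-1.23 in place of 0.39) and Npy over Sst (-0.00077 in place of 0.10). Another 8 of the 16 pairs moved by more than the spread between libraries in CPM: the 6 ratios of a peptide to its receptor in the Tac1, Sst and Npy systems were lower (from 3.32-fold for Sst over Sstr1 to 18.5-fold for Npy over Npy2r), and Tacr1 over Tacr3 (1.65-fold) and Tac1 over Tac2 were higher. Calca over Calcrl ranged from -0.10 without replicate 2 to 0.87 without replicate 1. From expected counts, the Tac1 share with exon 4 was 68.2% and that with exon 6 was 72.5%, and from posterior means the Sstr2 spliced share was 10.7%. With either library left out, these shares ranged from 54.6% to 56.7%, from 73.1% to 75.2% and from 3.06% to 8.10%, and that of the CGRP form from 95.2% to 96.98%. Counting error limits the genes with few counts, among them Cort, Tac4, Ppy, Adm2, Iapp, Tac2, Tacr2 and Npy6r with under 10 in each library.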
